A study of Mus musculus with 12 samples.

Results

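The miR-29 family was followed in microglial exosomes of male C57BL/6 mice after repetitive mild traumatic brain injury (rmTBI). The mice were 12 weeks old when purchased, per the study's methods. No other age is given, so age when killed and day after injury cannot be told apart. The 5 family arms examined were mmu-miR-29a-3p, mmu-miR-29b-3p, mmu-miR-29c-3p, mmu-miR-29a-5p and mmu-miR-29c-5p (written below without the prefix for mouse), each matched by its exact name to the 1881 miRNAs on the array, and all 5 were found. The injured mice received 4 closed-head impacts with 48 h between impacts, and were killed 3, 14 or 42 days post-injury (DPI), which the study took as the acute, sub-acute and chronic phases. Sham mice had the same handling, anesthesia included, without the impact, and the labels give them no day of their own. Each of the 4 groups had 3 one-colour (Cy3) Agilent arrays, 12 in all. The exosomes were taken from digested brain tissue with an antibody to CD11b, a surface protein that microglia share with other myeloid cells. The sources used here give neither the number of mice behind an array nor any pooling, so p-values measure the spread between arrays, which may be technical.

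miR-29 is a family of small RNAs that each load into Argonaute and guide it to messenger RNAs through the seed, bases 2 to 8 from the 5′ end. A miRNA hairpin gives 2 arms, of which one (here 3p) usually stays in the complex and the other is largely degraded. The 3p arms are known to lower the messages of collagens and other matrix proteins, of the DNA methyltransferases and of Bace1, the secretase that starts amyloid-β formation, and they are abundant in the mature brain.

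The mature sequences are shown because the results compare 3 arms that share a seed with 5p arms that do not. They are RefSeq sequences of GRCm38.p6, written 5′ to 3′ with the seed in capitals.
miR-29a-3p: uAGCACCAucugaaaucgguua
miR-29b-3p: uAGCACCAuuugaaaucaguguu
miR-29c-3p: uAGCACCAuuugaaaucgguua
miR-29a-5p: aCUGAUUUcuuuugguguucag
miR-29c-5p: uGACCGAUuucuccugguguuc
Of 1679 mouse mature miRNA names in that table, 3 carry the seed AGCACCA, and they are the 3 miR-29 3p arms. Counted from 1 at the 5′ end, miR-29a-3p and miR-29c-3p differ at 1 of 22 positions (C10U, miR-29a-3p first). miR-29b-3p is 23 bases long and differs from miR-29c-3p at 3 of the 22 positions they share (A18G, G21U and U22A, miR-29b-3p first). The files do not say how well each probe separates arms this alike, so signal could be shared between them. The 5p arms have different seeds. Counted from their 5′ ends with no offset, they are identical at 5 of 22 positions. This count understates their likeness, since shifting one of the printed sequences against the other pairs more of their bases. Signal could therefore be shared between the 5p arms as well.

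The arms come from 2 clusters. Mir29b-2 (chr1:195037040-195037120, plus strand) lies 426 bases from Mir29c (chr1:195037547-195037634, plus strand), and both lie inside the long noncoding RNA gene A330023F24Rik. Mir29a (chr6:31062660-31062747, minus strand) lies 275 bases from Mir29b-1 (chr6:31063023-31063093, minus strand), and no other gene of the RefSeq table overlaps them. miR-29b-3p has the same sequence in both clusters, so its signal cannot be assigned to either. The Mir29c hairpin is shown with its 5p and then its 3p arm in capitals, since it is the hairpin from which both arms were measurable.
Mir29c: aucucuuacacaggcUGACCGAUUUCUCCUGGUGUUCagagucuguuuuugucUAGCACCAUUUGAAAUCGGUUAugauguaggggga

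The arrays differed in brightness before any scaling. The 75th percentile of signal over the 230 miRNAs detected on all 12 arrays was 217 to 348 scanner units in sham. It was 402 to 620 for 3 DPI, 588 to 1173 for 14 DPI and 1385 to 2936 for the 42 DPI arrays, and the number of detected miRNAs went from 243 on the dimmest array to 579 on the brightest. The levels below are log2 of signal divided by that percentile, so 0 is the array's own 75th percentile. Each level is relative to its array and does not give the amount of RNA, and less of a miRNA per exosome cannot be told apart from fewer exosomes that carry it. The 3 sham arrays and 3 DPI replicate 1 were on slide 1 and the other 8 arrays on slide 2. Sham therefore shared no slide with 14 or 42 DPI, and for these comparisons slide and group cannot be told apart.

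The label of a microglial source was set against its markers. Of 7 microglia- and myeloid-enriched miRNAs, 5 were detected on no sham array, among them miR-142a-3p, miR-142a-5p and miR-155-5p. The sham arrays were the dimmest, with 243 to 285 of the 1881 miRNAs detected on each. Of 14 neuron-enriched miRNAs, 12 were detected on all 3 sham arrays, while miR-124-3p and miR-344d-3p were detected on none. By 42 DPI 5 of the 7 myeloid miRNAs were detected on all 3 arrays, while miR-142a-5p was on none.

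The 3p arms, which carry the shared seed, were detected on all 12 arrays. The level of miR-29a-3p was 3.54, 3.86 and 3.95 in sham (mean 3.79 ± 0.21, SD, n = 3). It was 3.80, 3.80 and 3.45 at 3 DPI (3.68 ± 0.20) and 3.42, 3.99 and 4.25 at 14 DPI (3.88 ± 0.43). At 42 DPI it was 4.14, 4.02 and 4.22 (4.13 ± 0.10). All 3 arrays at 42 DPI lay above all sham and 3 DPI arrays, whereas the 14 DPI arrays spanned the range of every other group. In order of mean, 3 DPI came before sham, 14 DPI and 42 DPI, and no neighbours in this order differed by the limma test.

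miR-29b-3p, made from both clusters, had levels of 2.16, 2.46 and 2.85 in sham (2.49 ± 0.34) and of 2.19, 3.04 and 2.63 at 3 DPI (2.62 ± 0.43). It was 2.39, 2.95 and 3.37 at 14 DPI (2.90 ± 0.49) and 3.18, 3.17 and 3.42 at 42 DPI (3.26 ± 0.14). The 42 DPI arrays again lay above all sham and 3 DPI arrays, and within 3 DPI the lowest array was the one on slide 1.

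miR-29c-3p, which differs from miR-29a-3p by 1 base, was at 2.10, 2.41 and 2.58 in sham (2.36 ± 0.24) and at 2.33, 2.60 and 2.28 at 3 DPI (2.40 ± 0.17). It was at 2.07, 2.67 and 2.97 at 14 DPI (2.57 ± 0.46) and at 2.88, 2.78 and 2.99 at 42 DPI (2.88 ± 0.10). For miR-29b-3p and miR-29c-3p the order of means was sham, 3 DPI, 14 DPI and 42 DPI, and no neighbours in it differed by the test.

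The 5p arms are the strands usually degraded. miR-29c-5p was detected on all 12 arrays. Its level was -2.78, -2.28 and -2.30 in sham (-2.45 ± 0.28) and -2.35, -2.21 and -2.63 at 3 DPI (-2.39 ± 0.22). It was -2.60, -1.88 and -1.82 at 14 DPI (-2.10 ± 0.44) and -1.68, -1.80 and -1.77 at 42 DPI (-1.75 ± 0.06). The 3 arrays at 42 DPI lay above every other array, and their spread was the smallest of the 4 groups. The order of means was sham, 3 DPI, 14 DPI and 42 DPI, and no neighbours in it differed by the test. At 14 DPI, replicate 1 lay below the sham mean and the other two above it, for this arm and for the 3p arms alike.

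miR-29a-5p, from the hairpin of miR-29a-3p, was well above background on no sham, 3 DPI or 14 DPI array and on 2 of 3 arrays at 42 DPI, so it was not tested. Its summed signal was 20.7 to 41.3 at 42 DPI against 6.13 to 13.6 in sham, before scaling. After scaling and before the floor, its mean level at 42 DPI was -6.09. The mean limit of detection was -4.18 in sham, -5.11 at 3 DPI and -5.68 at 14 DPI, with the arm's own signal used on an array where it was higher. The mean level thus lay under each mean limit, which leaves no bound on its fold change. By array, the lowest detected signal at 14 DPI was -5.35 on replicate 1, -6.5 on replicate 2 and -6.1 on replicate 3. Of the arms that complete the hairpins, miR-29b-2-5p was detected on no array. miR-29b-1-5p was detected on 2 of 3 arrays at 14 DPI and on 3 of 3 at 42 DPI, and on none earlier. Its mean level was -4.83 at 42 DPI and -5.03 at 3 DPI, with values under the floor set to it (adjusted p = 0.421 in limma), and no fold is given for it.

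**Figure D1:**
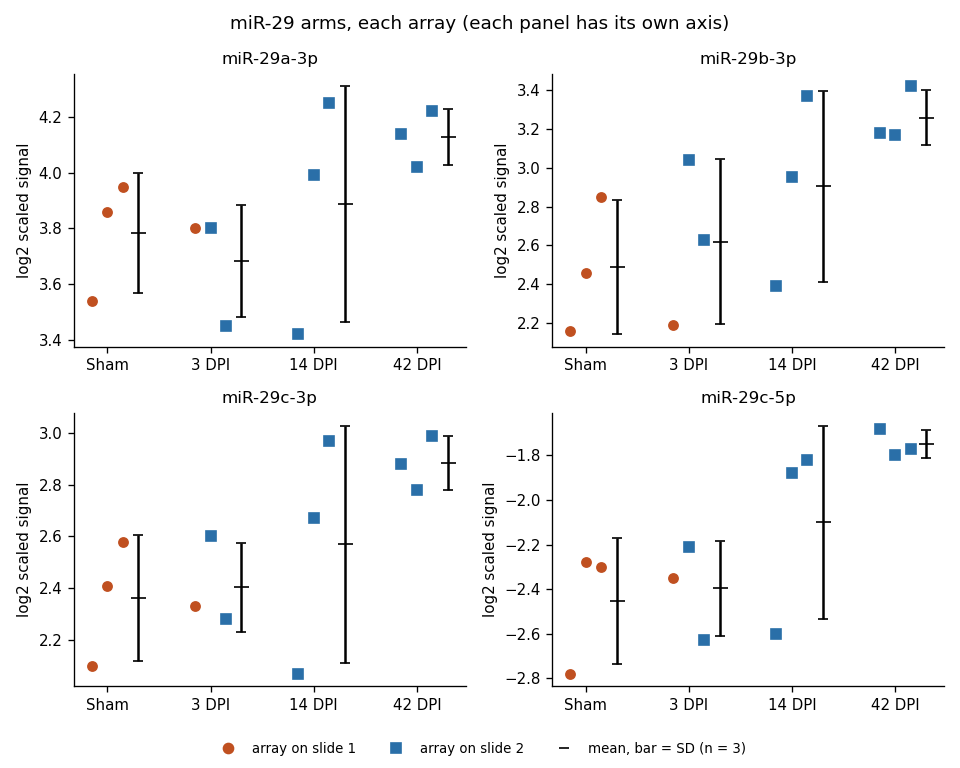
Levels of the 4 measurable miR-29 arms on each array (log2 of signal over the array's 75th percentile, one panel per arm), by group and slide, with the mean and SD of 3 arrays. All 4 arms have their 42 DPI arrays above their sham arrays, and 14 DPI replicate 1 lies apart from the other two of its group.

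The first question was whether the family changed early. At 3 DPI against sham, 0 of the 4 tested arms passed an adjusted p of 0.05 in limma, against 0% of the 486 miRNAs tested. None had an unadjusted p under 0.05 either (0 of 4, against 2.26% of all miRNAs), and the 2-group test of the study's methods, here with Benjamini-Hochberg adjustment and no fold threshold, also called 0. At the methods' own threshold, a change over 2-fold with an unadjusted p under 0.01, that test called 0 arms in each of the 6 comparisons. No arm changed by more than 1.70-fold in any of them, so the fold threshold alone fixed this count. Over all miRNAs the same threshold called 101 at 42 DPI against sham, 60 at 42 DPI against 3 DPI and 1 to 7 in the others. The study's results section names a p under 0.05 instead. For 3 DPI against sham the changes were -0.11 for miR-29a-3p (95% interval -0.58 to 0.37), 0.13 for miR-29b-3p (-0.54 to 0.80), 0.04 for miR-29c-3p (-0.46 to 0.54) and 0.06 for miR-29c-5p (-0.45 to 0.57), on the log2 scale. These intervals leave room for changes of either sign. The single 3 DPI array that shared a slide with sham lay within the range of the sham arrays for all 4 arms.

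At 14 DPI against sham, 0 of 4 arms passed the adjusted threshold, where 3.7% of all miRNAs did by limma. An unadjusted p under 0.05 was reached by 0 of 4 arms and 21.8% of all miRNAs, and the methods' test with the same adjustment called 0. The log2 changes were 0.10 for miR-29a-3p (adjusted p = 0.866), 0.41 for miR-29b-3p (0.45), 0.21 for miR-29c-3p (0.649) and 0.35 for miR-29c-5p (0.393). All 4 were above 0, and none exceeded the spread of the arrays. Without 14 DPI replicate 1 the change of miR-29c-5p was 0.60 (adjusted p = 0.0317), and 162 miRNAs in place of 18 were called over the whole array.

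At 42 DPI miR-29c-5p rose against sham by 0.70 ± 0.22 (SE) on the log2 scale, which is 1.63-fold (adjusted p = 0.0414, limma with Benjamini-Hochberg over 486 miRNAs). Its summed signal includes a dimmer probe that was not well above background on sham replicates 1 and 2. The brighter probe alone changed by 0.64 with the same scaling. In a limma fit of the brightest probe of every miRNA, scaled by its own percentile, the change was 0.735 (adjusted p = 0.0325). In the main fit miR-29c-5p was the 1 arm of 4 that passed, where 34.2% of all miRNAs passed in either direction and 13.6% upward, so 1 of 4 does not set the family apart from the array. An unadjusted p under 0.05 was reached by 3 of 4 arms and 47.5% of all miRNAs, and the methods' test after adjustment called 2 arms and 47.2% of the miRNAs it could test. The 3p arms had changes of 0.34 ± 0.21 for miR-29a-3p (1.27-fold, adjusted p = 0.219), 0.77 ± 0.29 for miR-29b-3p (1.70-fold, adjusted p = 0.0718) and 0.52 ± 0.22 for miR-29c-3p (1.43-fold, adjusted p = 0.0907). All 4 arms had their 42 DPI arrays above every sham array, which 31.3% of all miRNAs did. The median change of the 4 arms was 0.61 against -0.09 over all miRNAs tested. Of those 486 miRNAs, 230 were detected on all arrays, as the 4 arms were, and no median over the 230 alone was taken.

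The rise of miR-29c-5p was at the limit of these arrays. Leaving out any 1 of the 6 arrays kept its change between 0.54 and 0.79, but the adjusted p then lay between 0.0546 and 0.15, and the number of arms called was 0 each time. With slide as a block, which ties the slides together through the 3 DPI arrays alone, its change was 0.78 (adjusted p = 0.315), that of miR-29b-3p fell to 0.12 (adjusted p = 0.919), and 0 miRNAs were called on the whole array. After normexp background correction its change was -0.29 (adjusted p = 0.0544), with 433 miRNAs called. That setting adds an offset of 50 to each spot, where the summed signal of miR-29c-5p in sham was 41.6 to 70.4. How far the offset sets the sign of this change was not tested. With 2 times the floor it was not called (adjusted p = 0.0602, 87 miRNAs called), nor with no filter on detection (adjusted p = 0.19, 18 called). With the deposited processed values the change of miR-29c-5p was 1.05 (adjusted p = 0.0319).

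**Figure D2:**
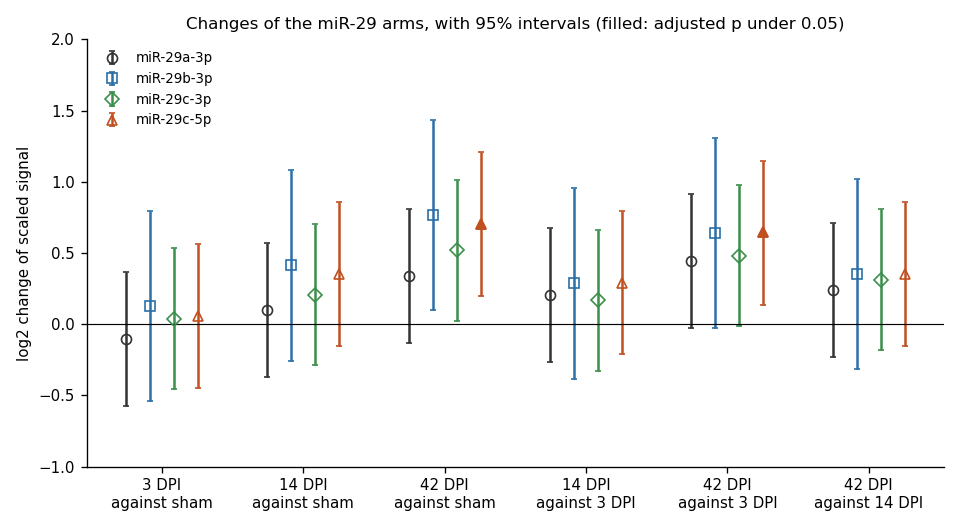
Log2 change of each measurable miR-29 arm in the 6 comparisons, with 95% intervals from limma, filled where the adjusted p was under 0.05. Only miR-29c-5p is filled, at 42 DPI against sham (0.70) and against 3 DPI (0.64).

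Between the injured groups, miR-29c-5p was higher at 42 DPI than at 3 DPI by 0.64 ± 0.22 (1.56-fold, adjusted p = 0.0487), again 1 of 4 arms, with 38.3% of all miRNAs called in either direction and 14.2% upward. An unadjusted p under 0.05 was reached by 1 of 4 arms and 50.2% of all miRNAs, and the methods' test after adjustment called 2 arms and 36.6% of those it could test. The 3p arms had changes of 0.44 for miR-29a-3p (adjusted p = 0.114), 0.64 for miR-29b-3p (0.111) and 0.48 for miR-29c-3p (0.11). For all 4 arms the 42 DPI arrays lay above the 3 DPI arrays, as for 28.6% of all miRNAs. On slide 2 alone, which held 2 of the 3 DPI arrays and all of those at 42 DPI, the change of miR-29c-5p was 0.67 (adjusted p = 0.119), with 0 miRNAs called on the whole array. That comparison lies within 1 slide, and miR-29c-5p did not pass in it.

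At 14 DPI against 3 DPI, 0 of 4 arms passed, where 0.617% of all miRNAs did by limma, and the changes lay between 0.17 for miR-29c-3p and 0.29 for miR-29c-5p. At 42 DPI against 14 DPI, where all 6 arrays were on slide 2, 0 of 4 passed by limma, and 0% of all miRNAs. An unadjusted p under 0.05 was reached by 0 of 4 arms in both comparisons, against 20.2% and 11.1% of all miRNAs, and the methods' test after adjustment called 0 arms in both. The changes there were 0.24 for miR-29a-3p, 0.35 for miR-29b-3p, 0.31 for miR-29c-3p and 0.35 for miR-29c-5p, with adjusted p-values of 0.543 to 0.583. miR-29c-5p alone had its arrays at 42 DPI above those at 14 DPI, which 1.85% of all miRNAs did.

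Before scaling, the arms followed the brightness of the arrays. The summed signal of miR-29a-3p was 3154 to 5383 scanner units in sham and 22517 to 51654 at 42 DPI, and that of miR-29c-5p was 41.6 to 70.4 against 399 to 913. Without any scaling all 4 arms passed at 42 DPI, with log2 changes of 3.16 for miR-29a-3p to 3.58 for miR-29b-3p, but 408 of 486 miRNAs passed, and the median of all miRNAs moved by 1.90 as well. How far brightness follows the amount of labelled RNA was not tested.

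Each of the 4 tested arms was read by 2 probes, and the ratio of the 2 did not stay constant. For miR-29a-3p the dimmer probe gave 17.7, 16.7 and 17.4% of the signal of the brighter one on the sham arrays. It gave 17.5% on 3 DPI replicate 1, but 24.3 and 24.4% on 3 DPI replicates 2 and 3. On the 14 and 42 DPI arrays it gave 24.3 to 25.8%. The ratio therefore split by slide, within 3 DPI as well as between groups, and not by day.

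The other 3p arms split the same way. The ranges on slide 1 and slide 2 were 7.9 to 8.9% and 9.0 to 9.7% for miR-29b-3p, and 81.5 to 83.7% and 85.7 to 87.8% for miR-29c-3p. No array of slide 1 overlapped an array of slide 2 for any of the 3 3p arms. The dimmer probe of miR-29c-5p was not well above background on sham replicates 1 and 2, so its ratio has no measured value there. On the other 2 arrays of slide 1 the ratio was 31.8 and 34.5%, and on slide 2 it was 37.2 to 43.6%. Of the 135 miRNAs with 2 probes well above background on all arrays, 43.7% were separated between slides, 51 upward and 8 downward on slide 2. The 3p arms were among them, and the shift of miR-29a-3p (0.52 on the log2 scale) was the 7th largest, where the median shift was 0.11 in size.

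**Figure D3:**
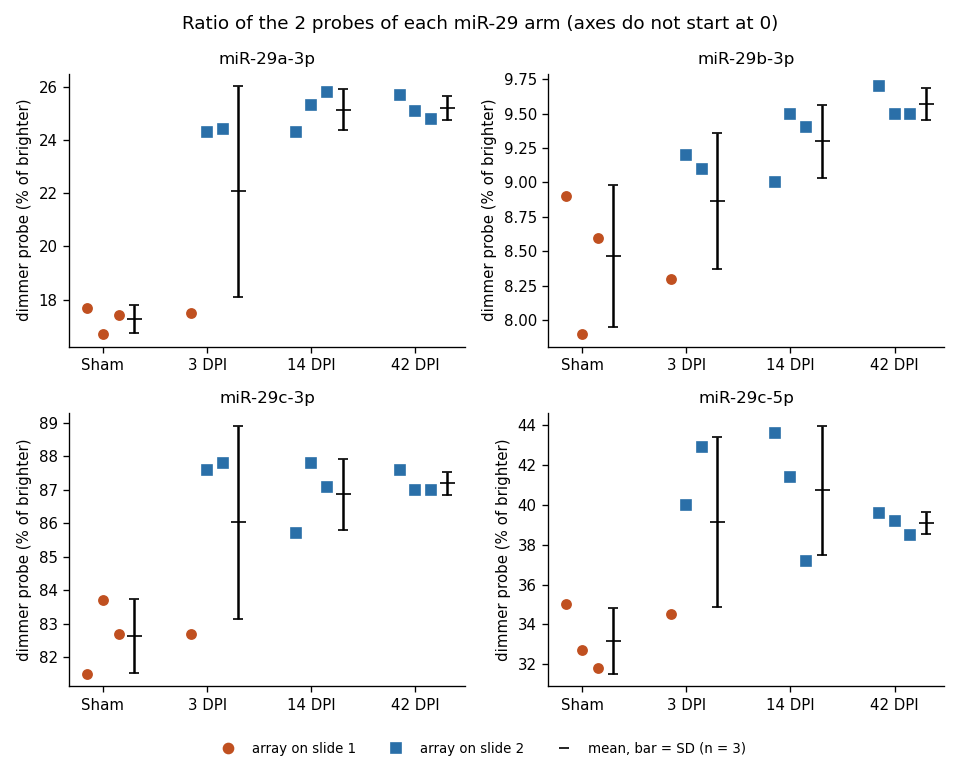
Signal of the dimmer probe as a percent of the brighter probe for each miR-29 arm on each array (mean and SD of 3 arrays per group). 3 DPI replicate 1, on slide 1, lies with the sham arrays for the 3p arms, and the other 8 injured arrays, on slide 2, lie above them; for miR-29c-5p the dimmer probe was not well above background on sham replicates 1 and 2.

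For miR-29a-3p the 2 probes gave different changes at 42 DPI against sham, 0.25 by the brighter probe and 0.79 by the dimmer one, with the same scaling. When the dimmer probe stood for each arm in the fit, 170 of 486 miRNAs passed at 42 DPI against sham, 3 arms among them. The adjusted p-values were 0.0245 for miR-29a-3p, 0.0498 for miR-29b-3p and 0.0131 for miR-29c-5p, of which the last is no measured difference, since that probe was not above background on sham replicates 1 and 2. Against 14 DPI, within slide 2, the 2 probes of miR-29a-3p gave 0.24 and 0.25. Within an array, the 13 to 15 kept spots of a miR-29a-3p probe had a median coefficient of variation of 2.84%, and the 12 to 15 spots of a miR-29c-5p probe one of 6.7%.

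The arms were also compared with each other inside each array, which removes the scaling. Relative to miR-29a-3p, miR-29b-3p changed by 0.23 more at 3 DPI against sham, by 0.31 more at 14 DPI and by 0.43 more at 42 DPI. The differences for miR-29c-5p were 0.16, 0.25 and 0.36, and those for miR-29c-3p were 0.14, 0.11 and 0.18. Over the family of 18 such comparisons the lowest exact permutation p was 0.1 (two-sided), the smallest that 3 arrays against 3 allow, and no adjusted p was under 0.225.

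These offsets followed the slides too. The log2 signal of miR-29b-3p minus that of miR-29a-3p was -1.61 to -1.10 on the 4 arrays of slide 1 and -1.04 to -0.76 on the 8 arrays of slide 2. 3 DPI replicate 1 had the lowest value of all, and 3 DPI replicate 2 the highest. The offsets of miR-29c-3p (-1.47 to -1.37 and -1.34 to -1.17) and of miR-29c-5p (-6.32 to -6.14 and -6.08 to -5.82) were separated in the same way. Without 3 DPI replicate 1, the difference of miR-29b-3p at 42 DPI against 3 DPI turned from 0.19 to -0.08.

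**Figure D4:**
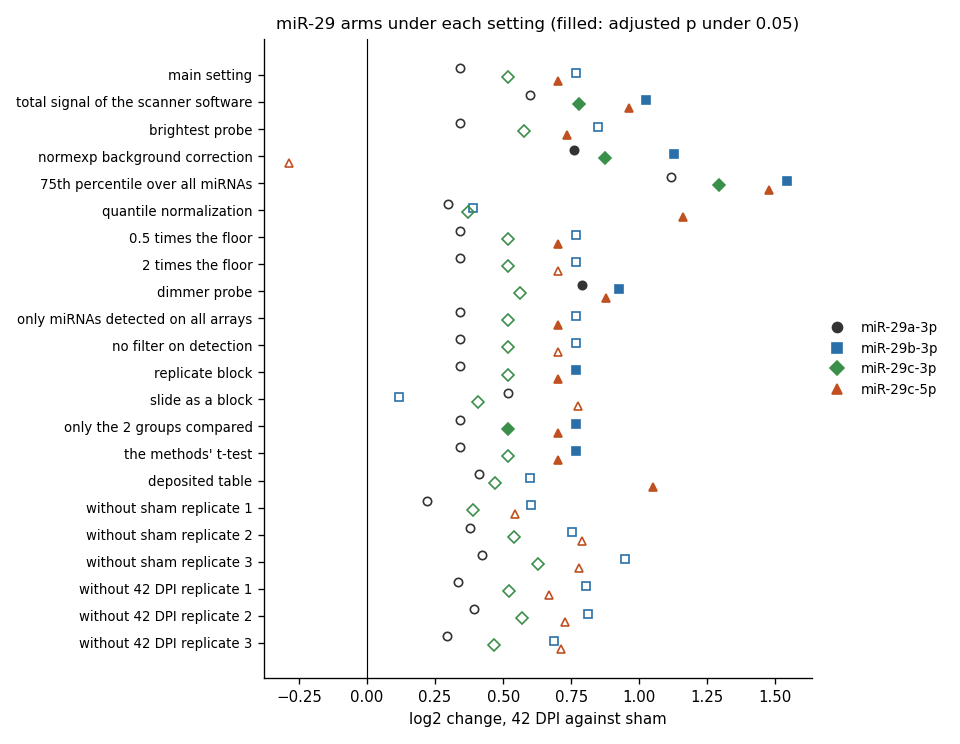
Log2 change of the miR-29 arms at 42 DPI against sham under each processing setting, filled where the adjusted p was under 0.05; the setting without scaling (3.16 to 3.58) lies off the axis and is not drawn. Every drawn change is above 0 except that of miR-29c-5p after normexp (-0.29), which adds an offset of 50 to each spot. miR-29c-5p is open whenever 1 array is left out.

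The pattern over the 12 arrays was set beside that of the other 226 miRNAs detected on all arrays. The profiles most like the mean of the 3 3p arms were those of miR-153-3p (r = 0.969), let-7f-5p (0.95), let-7a-5p (0.948), miR-551b-3p (0.945) and miR-873a-5p (0.945). Those most opposed were miR-8110 (-0.957), miR-7020-5p (-0.95), miR-1895 (-0.941), miR-211-3p (-0.941) and miR-6984-5p (-0.939). All these values share the scaling of each array and the change in brightness between groups, and they rank profiles only. At 42 DPI against sham, let-7f-5p rose by 0.84 (adjusted p = 0.0486, limma) and miR-551b-3p by 0.97 (0.0345), while miR-211-3p fell by 2.33 (0.0217) and miR-8110 by 2.05 (0.0412). Of the other like profiles, miR-153-3p (0.51, 0.202), let-7a-5p (0.7, 0.0742) and miR-873a-5p (0.49, 0.185) did not pass. Of the other opposed ones, miR-1895 (-1.49, 0.0255) and miR-6984-5p (-1.34, 0.0498) passed and miR-7020-5p (-1.33, 0.0661) did not.

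Other miRNA families gave a scale for these changes. Of all 486 miRNAs tested, 34.2% passed at 42 DPI against sham in either direction and 13.6% upward, and no list was tested against these shares. In the miR-30 family, 4 of 5 members rose at 42 DPI against sham and the median change was 0.93, led by miR-30b-5p (1.41, adjusted p = 0.00573). In the let-7 and miR-98 family, 2 of 10 rose, miR-98-5p (1.38, adjusted p = 0.0152) and let-7f-5p, with a median of 0.52. The median of the miR-29 arms, 0.61, lay between the medians of these families, and no difference between families was tested.

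Among 12 tested miRNAs linked to collagen and TGF-β, a process the miR-29 3p arms restrain, 4 passed upward and 3 fell at 42 DPI against sham. Over all miRNAs 34.2% passed in either direction and 13.6% upward. Of the 4 that passed upward, miR-133b-3p was detected on no sham array. The 3 that fell were the miR-200 members, miR-200c-3p (-2.72, adjusted p = 0.00959), miR-200b-3p (-1.99, 0.0208) and miR-200a-3p (-1.66, 0.0458), known for repressing the transcription factors Zeb1 and Zeb2. miR-30c-5p, known to target connective tissue growth factor, rose by 1.01 (0.0124). Of 10 tested miRNAs other than miR-29 that are known to target Bace1, 0 passed upward and 2 downward by limma. Over all miRNAs the shares were 13.6% upward and 34.2% in either direction. miR-328-3p fell (-1.98, adjusted p = 0.00683), while miR-298-5p was detected on no sham array, so its lower value is no measured decrease. miR-9-5p, also in that list, had a change of 0.81 (0.0605). miR-124-3p is on this list and on the neuronal one. Its 30 spots on each injured array lay on another array's grid, so its comparisons are no measured result and no value is given for it. It is still counted among the 10 tested here and in the counts and sums of the neuronal list.

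Some markers of other brain cells were also higher at 42 DPI than in sham, where 13.6% of all miRNAs passed upward. Slide and group cannot be told apart in this comparison. Whether the markers followed the miR-29 arms from array to array was not tested. The summed level of the 10 astrocyte-enriched miRNAs was 7.53 to 10.4 times the array's 75th percentile in sham and 12.7 to 13.4 at 42 DPI, and 5 of 10 rose (miR-143-3p among them, undetected in sham), led among those detected throughout by miR-23a-3p (1.04, adjusted p = 0.0137) and miR-27b-3p (1.02, 0.0141). That of the 14 neuron-enriched miRNAs was 21.9 to 30.3 in sham and 37.3 to 42.2 at 42 DPI, with 5 of 14 higher (miR-344d-3p among them, undetected in sham), led by miR-376a-3p (1.24, 0.013) and miR-128-3p (1.05, 0.0217), and 1 lower, miR-433-3p (-1.09, 0.0121). Of 4 oligodendrocyte-enriched miRNAs, miR-219a-2-3p (1.23, 0.00996) and miR-219a-5p (1.20, 0.0164) rose, and the sum went from 1.81 to 2.51 in sham to 4.15 to 4.46.

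For the microglia- and myeloid-enriched list the sum was 0.691 to 0.965 in sham and 1.40 to 1.59 at 42 DPI. Of the 5 tested members 4 rose, against 13.6% of all miRNAs, but miR-21a-5p (0.86, adjusted p = 0.0493) was the only one of the 4 detected on every sham array. The others passed the filter through the group in which they were high. The erythrocyte-enriched list summed to 0.0869 to 0.129 in sham and 0.0443 to 0.0829 at 42 DPI, and miR-144-3p and miR-144-5p were detected on no array. The summed level of the miR-29 arms themselves was 20.6 to 28.9 in sham and 32.4 to 37.6 at 42 DPI. The part of these other cell markers in the miR-29 values was not tested.

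**Figure D5:**
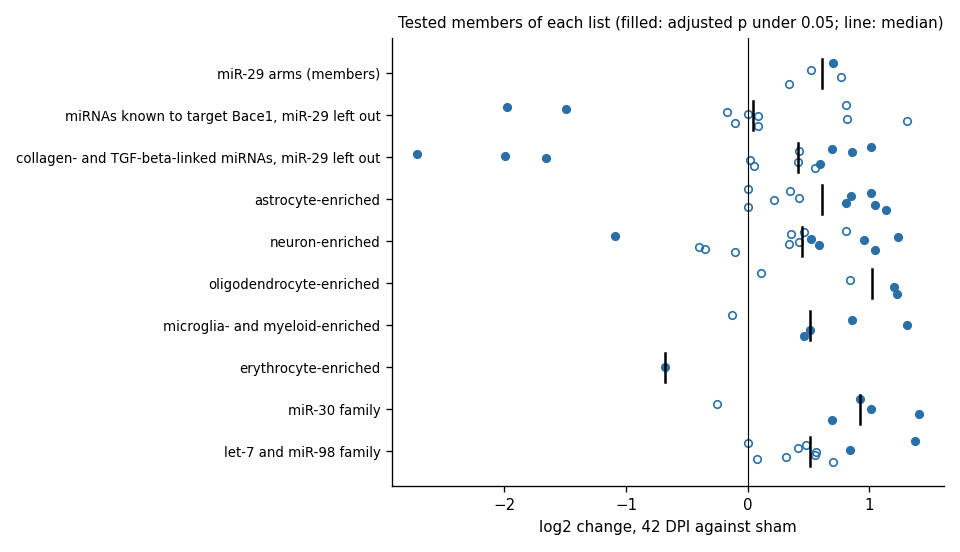
Log2 change at 42 DPI against sham of each tested member of the miRNA lists (points, filled where the adjusted p was under 0.05) with the list's median (line). The miR-29 arms have a median of 0.61, between those of the let-7 and miR-98 family (0.52) and the miR-30 family (0.93).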

How the data were processed

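Cy3-labelled RNA was measured on 12 Agilent arrays. The authors deposited scanner intensities (Agilent Feature Extraction 10.7.1.1, per the submitters' processing notes) and one series-wide table on a log2 scale. The deposited log2 columns each had a median of -3.32, which was also the lowest value, and their centring and normalization stay unknown.

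Control and outlier spots were left out, spots averaged, probes of a miRNA summed, and the sums divided by their 75th percentile on that array, taken from the 230 miRNAs detected on every array. A miRNA counted as detected where over 0.5 of the spots of a probe were well above background. One floor (-5.06, log2) was set before log2. The 486 miRNAs detected throughout at least 1 group were tested with limma 3.58.1 in R 4.3.3, 4 groups in one fit, with Benjamini-Hochberg adjustment at 0.05. The fit was tested on simulated data. Figures used Python 3.11.15 and matplotlib 3.10.9. Offsets between arms were compared by exact permutation of arrays. The number of arrays limits the precision.

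Other miRNAs were named by rule: the 5 highest and 5 lowest profile correlations, and at most 4 members of each list by size of change at 42 DPI against sham; miR-298-5p, miR-143-3p, miR-133b-3p, miR-344d-3p and the undetected markers were named after their values were seen. The members and lists were chosen with earlier results of these data known. Same-numbered sham and 14 DPI arrays deviated together (r = 0.83, 0.44 and 0.75), a pairing seen in the data only. Blocking on the number changed no call of a miR-29 arm there, while calls over all miRNAs went from 18 to 4.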

Additional observations from a re-analysis of the deposited data

Results flagged for a closer look

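miR-29c-5p had changes against sham that differed between time points by the test of the difference itself: since both share the sham arrays, the difference between its changes at 42 DPI and at 3 DPI is the comparison of these groups, 0.644 on the log2 scale (adjusted p = 0.0487, limma). On slide 2 alone the value was 0.668 (adjusted p = 0.119).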

How the results depend on the processing

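The 4 arms were recomputed under every alternative, and over all arms and comparisons 449 changes kept their direction and side of the threshold, 38 newly passed, 22 no longer passed and 31 turned sign. The cause was not tested.

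At 42 DPI against sham, 1 arm was called among 166 miRNAs on the whole array, and arms called are given here with that count in brackets. They were 3 with the scanner software's total signal (177), with normexp (433), with a percentile taken from all miRNAs (223), with the dimmer probe (170, chosen after seeing the data, and with miR-29c-5p not above background on 2 sham arrays) and with only the 2 groups fitted (262). They were 4 without scaling (408), 2 with the replicate block (141) and with the methods' t-test after adjustment (212), and 0 with 2 times the floor (87), with no filter on detection (18) and with slide as a block (0). They were 0 to 0 over the 6 fits with 1 array left out (46 to 143). At 42 DPI against 3 DPI, 1 arm was called (186). The number was 3 with normexp (313) and with only the 2 groups (212), 4 without scaling (303) and when the 75th percentile came from all miRNAs (263), and 2 with the methods' t-test after adjustment (165). It was 0 with the total signal (139), 0.5 and 2 times the floor (224 and 63), only miRNAs detected on all arrays (118), no filter (0), the replicate block (137), slide as a block (94) and slide 2 alone (0), and 0 to 1 with 1 array left out (0 to 199). All these arms were higher at 42 DPI. At 14 DPI against sham, where 0 arms were called (18), 1 was lower with normexp (miR-29c-5p, adjusted p = 0.0296, 377), 4 were higher without scaling (319), and 0 to 1 were called, upward, with 1 array left out. At 14 DPI against 3 DPI it was 0 to 1, upward, with 1 array left out (131 without 14 DPI replicate 1), and at 42 DPI against 14 DPI it was 4, all higher, without scaling (166). Fits that leave a group with 2 arrays rest on fewer arrays.

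Sign changes at 3 DPI against sham: miR-29a-3p gave 0.046 with the total signal, 0.084 with normexp, 0.042 with quantile normalization, 0.69 without scaling, 0.18 with the dimmer probe, 0.013 with slide as a block and 0.16 with the deposited table. miR-29b-3p gave -0.30 with slide as a block. miR-29c-3p gave -0.034 with the percentile from all miRNAs and -0.035 with slide as a block. miR-29c-5p gave -0.27 with normexp, -0.013 with the percentile from all miRNAs and -0.043 with the deposited table. With 1 array left out the ranges were -0.225 to 0.012 for miR-29a-3p, -0.083 to 0.343 for miR-29b-3p, -0.092 to 0.148 for miR-29c-3p and -0.10 to 0.18 for miR-29c-5p.

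After normexp, whose offset bears most on dim probes, miR-29c-5p gave -0.34 at 14 DPI and -0.29 at 42 DPI against sham, and -0.075 at 14 DPI and -0.02 at 42 DPI against 3 DPI. At 14 DPI against sham, miR-29b-3p gave -0.24 with slide as a block, and miR-29a-3p ranged from -0.082 to 0.333 with 1 array left out. At 14 DPI against 3 DPI, quantile normalization gave -0.015 for miR-29b-3p and -0.04 for miR-29c-3p, the deposited table gave -0.003 for miR-29a-3p, and miR-29c-3p ranged from -0.03 to 0.42 with 1 array left out.

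For the offsets from miR-29a-3p, normexp turned those of miR-29c-5p to -0.35, -0.76 and -1.05 at 3, 14 and 42 DPI against sham, to -0.41 and -0.70 at 14 and 42 DPI against 3 DPI and to -0.29 at 42 against 14 DPI. With 1 array left out (added after seeing the data), miR-29b-3p ranged from -0.19 to 0.23 at 14 DPI and from -0.081 to 0.346 at 42 DPI against 3 DPI, and miR-29c-3p from -0.13 to 0.02 and from -0.061 to 0.09. Sham and 3 DPI could not be compared within slide 1 or slide 2 by the planned rule, nor sham with 14 or 42 DPI. Signal over background limits the 5p arms, and miR-29a-5p has no value above it on 10 of 12 arrays.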
